A study of Mus musculus with 12 samples.

Results

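Chromatin accessibility was examined around 5 mouse microRNA loci, the stem cell clusters miR-290 to miR-295 and miR-302/miR-367 and the fibroblast loci miR-143/miR-145, miR-21 and miR-155. A peak was a member if it lay within 10 kb of 1 of 10 hairpin genes of GENCODE M21 on GRCm38, namely Mir291a, Mir294, Mir295, Mir302a, Mir302b, Mir367, Mir143, Mir145a, Mir21a and Mir155. This rule used position only and took 40 of the 91354 peaks counted on BGI and 38 of the 87027 peaks counted on Illumina. The BGI set held 12 peaks at miR-290 to miR-295, 3 at miR-302/miR-367, 13 at miR-143/miR-145, 11 at miR-21 and 1 at miR-155. Hairpins of 1 cluster lie so close together that they share most of their peaks, so the locus and not the hairpin is the unit of description.

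The profiles came from Omni-ATAC-seq, a form of ATAC-seq in which a transposase cuts accessible DNA in nuclei and tags the ends for sequencing. MEFs (mouse embryonic fibroblasts, sorted as Thy1+) gave libraries 1, 2 and 4, and mESCs (mouse embryonic stem cells, sorted as Thy1-, Ssea1+ and Epcam+) gave libraries 1, 3 and 5, all on a C57/Bl6 background. Each of the 6 libraries was read on 2 sequencers, the BGI DNBSEQ-G400 with its DNA nanoballs and the Illumina HiSeqX10, so the Illumina values are a second reading of the same libraries and not new biological samples. The study describes the libraries of a cell type as biological replicates. Whether they came from separate animals or cultures is not given in the sources used here, and p-values measure only the spread between these libraries. In such bulk profiles, a site open in more cells and a site more open in each cell cannot be told apart.

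MicroRNAs are short RNAs cut by Drosha and Dicer from hairpins in longer transcripts, and they guide Argonaute proteins to messenger RNAs that pair with bases 2 to 8 of the microRNA, the seed. The miR-290 cluster is the most abundant microRNA cluster of mouse embryonic stem cells, and the miR-302/miR-367 cluster rises as these cells leave the naive state. The miR-143/miR-145 pair is known from smooth muscle and other mesenchymal cells, miR-21 is abundant in most cultured and injured tissues, and miR-155 is best known from activated immune cells. An open site near a hairpin can belong to its primary transcript, to an enhancer or to a neighbouring gene.

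The mature sequences below, from RefSeq on GRCm38.p6, are printed because their seeds, in capitals, tie both stem cell clusters together. The seed AAGUGCU was shared by 5 of the mature entries looked up, 3 of miR-290 to miR-295 and 2 of miR-302/miR-367.
mmu-miR-291a-3p: aAAGUGCUuccacuuugugugc
mmu-miR-294-3p: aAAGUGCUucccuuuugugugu
mmu-miR-295-3p: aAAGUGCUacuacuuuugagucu
mmu-miR-302b-3p: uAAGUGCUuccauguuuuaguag
mmu-miR-302d-3p: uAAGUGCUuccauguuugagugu

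The next 3 are mature forms of the members Mir367, Mir21a and Mir155, and each seed (capitals) occurred once among the entries looked up.
mmu-miR-367-3p: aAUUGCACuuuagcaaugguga
mmu-miR-21a-5p: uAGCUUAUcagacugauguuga
mmu-miR-155-5p: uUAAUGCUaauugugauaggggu
Mature sequences of miR-302a-3p, miR-292a-3p and the miR-143/miR-145 hairpins were not found in the form looked up. The counts of shared seeds leave them out, so the 5 entries with AAGUGCU may be too few.

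The open DNA that the results turn on is shown in the following 6 stretches of 300 bases. Each is the middle of a BGI peak, read 5′ to 3′ on the + strand of GRCm38.p6 (RefSeq). They are the peak 4.9 kb before the miR-290 hairpins, the last peak before them, the peak that reaches Mir302b, the pair of miR-21 peaks with the largest change and the highest level, and the single miR-155 peak. The highest peak of the miR-290 cluster lies in the last exon of Nlrp12 and is not printed. Capitals mark every match, on either strand, to 10 short motifs that are spelled out further on.
miR-290 upstream peak, chr7:3213622-3213921: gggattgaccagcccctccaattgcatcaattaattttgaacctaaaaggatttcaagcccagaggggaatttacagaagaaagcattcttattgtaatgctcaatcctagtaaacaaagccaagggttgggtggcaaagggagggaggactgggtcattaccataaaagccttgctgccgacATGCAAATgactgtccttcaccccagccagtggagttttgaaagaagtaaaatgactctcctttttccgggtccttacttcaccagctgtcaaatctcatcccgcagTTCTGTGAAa
miR-290 peak nearest before the hairpins, chr7:3217607-3217906: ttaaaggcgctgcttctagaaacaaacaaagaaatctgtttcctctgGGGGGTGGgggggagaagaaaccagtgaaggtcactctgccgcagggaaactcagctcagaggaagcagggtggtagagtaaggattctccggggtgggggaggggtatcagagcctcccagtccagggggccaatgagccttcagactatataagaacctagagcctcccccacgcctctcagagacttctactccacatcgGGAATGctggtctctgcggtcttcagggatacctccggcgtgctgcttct
miR-302/miR-367 peak, chr3:127544868-127545167: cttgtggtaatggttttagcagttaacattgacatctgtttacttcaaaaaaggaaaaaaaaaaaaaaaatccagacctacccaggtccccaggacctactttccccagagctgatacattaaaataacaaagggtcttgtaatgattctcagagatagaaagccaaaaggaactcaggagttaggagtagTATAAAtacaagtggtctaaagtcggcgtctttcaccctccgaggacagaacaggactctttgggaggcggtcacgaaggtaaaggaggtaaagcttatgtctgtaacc
miR-21 downstream peak, chr11:86582242-86582541: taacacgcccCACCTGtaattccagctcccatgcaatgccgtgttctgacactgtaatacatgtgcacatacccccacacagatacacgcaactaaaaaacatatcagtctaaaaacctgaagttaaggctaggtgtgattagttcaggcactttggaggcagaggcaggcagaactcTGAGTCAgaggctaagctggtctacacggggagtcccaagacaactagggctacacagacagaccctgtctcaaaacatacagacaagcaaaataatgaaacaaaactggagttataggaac
miR-21 highest peak, chr11:86586950-86587249: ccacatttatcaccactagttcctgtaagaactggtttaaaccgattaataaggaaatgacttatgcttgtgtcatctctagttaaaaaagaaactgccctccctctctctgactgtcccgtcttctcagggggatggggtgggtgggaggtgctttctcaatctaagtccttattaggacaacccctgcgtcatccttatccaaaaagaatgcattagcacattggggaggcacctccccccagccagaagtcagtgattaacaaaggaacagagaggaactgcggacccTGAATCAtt
miR-155 peak, chr16:84720656-84720955: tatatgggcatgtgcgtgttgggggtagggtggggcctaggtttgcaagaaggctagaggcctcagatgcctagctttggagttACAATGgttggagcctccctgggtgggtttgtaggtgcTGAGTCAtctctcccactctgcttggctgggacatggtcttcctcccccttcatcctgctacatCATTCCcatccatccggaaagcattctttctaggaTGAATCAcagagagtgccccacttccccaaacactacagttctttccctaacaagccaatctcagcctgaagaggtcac
The miR-290 upstream peak held the POU octamer from base 184 and a STAT match from base 291. The miR-302/miR-367 peak held TATAAA from base 192 and none of the other motifs. The miR-21 downstream peak held an AP-1 match from base 179, the highest miR-21 peak held one from base 292, and the miR-155 peak held 2, from bases 123 and 222. A match is a description of letters and says nothing of what binds there.

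Reads in peaks came to between 20.1 M and 21.7 M for each MEF sample and between 15.9 M and 17.0 M for each mESC sample (M, 1000000 reads). Levels below are CPM, counts per M reads in peaks, for peaks of the same width. A ± after a log2 fold change is the SE of the fit and after a CPM mean the SD (n = 3). At promoters, 9 of 10 mESC markers were more accessible in mESCs, with Zfp42, a pluripotency factor, at a log2 fold change of 5.38, and 1 was less accessible. That one was Fut4 (-0.67), a fucosyltransferase. Of 10 MEF markers, 9 were less accessible in mESCs and Pdgfra, a mesenchymal growth factor receptor, was not called (0.08, adjusted p = 0.53). Markers of other cells showed no single direction: of the macrophage genes, Csf1r was lower in mESCs (-2.97), Cd68 was higher (2.21), and Ptprc and Adgre1 had no promoter peak. Neither of 2 endothelial genes with a peak was called, 2 of 3 primitive endoderm genes were higher and 1 lower, 1 of 2 trophoblast genes with a peak was higher, Myod1 of muscle was higher (1.70), and none of 3 keratinocyte genes had a peak. The part of these cell types in the results was not tested.

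On BGI, 17 of the 40 member peaks were more accessible in mESCs, 21 were less accessible and 2 were not called by the quasi-likelihood test of edgeR at an adjusted p under 0.05. Over all BGI peaks, 40.9% were called higher and 43.2% lower (84.1% in either direction), so the member counts were close to the background. The peak set joins the authors' lists of reproducible peaks in each cell type, and at a peak that entered it only through the cell type where it was high, the direction was largely set by that choice. Of the 40 member peaks, 12 shared bases with a peak of both lists, 12 with the MEF list only and 16 with the mESC list only, including all 12 miR-290 peaks. The counts, medians and fold changes by locus are therefore descriptions, and where a peak is in 1 list only, its fold change is given without a p for mESC against MEF unless it was not called. At the stem cell loci 14 of 15 peaks were higher and 1 lower, with a median log2 fold change of 4.16, and at the fibroblast loci 3 of 25 were higher, 20 lower and 2 not called, with a median of -1.58. The median of all peaks was -0.08.

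The CPM ranges of both cell types did not overlap at 38 of the 40 peaks, with mESCs above at 17 and below at 21. Such separation was found at 42.9% of all peaks with mESCs above and at 42.2% with mESCs below. Summed over its BGI peaks, the miR-290 locus rose 22.9-fold from MEFs to mESCs. On Illumina, with a peak set that also held chr7:3222122-3222623, the rise was 20.45-fold. On BGI, miR-21 was 2.396-fold, miR-143/miR-145 1.66-fold and miR-155 3.08-fold higher in MEFs. The miR-302/miR-367 locus was nearly level, at 1.19-fold. These sums are descriptions without a test.

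**Figure D1:**
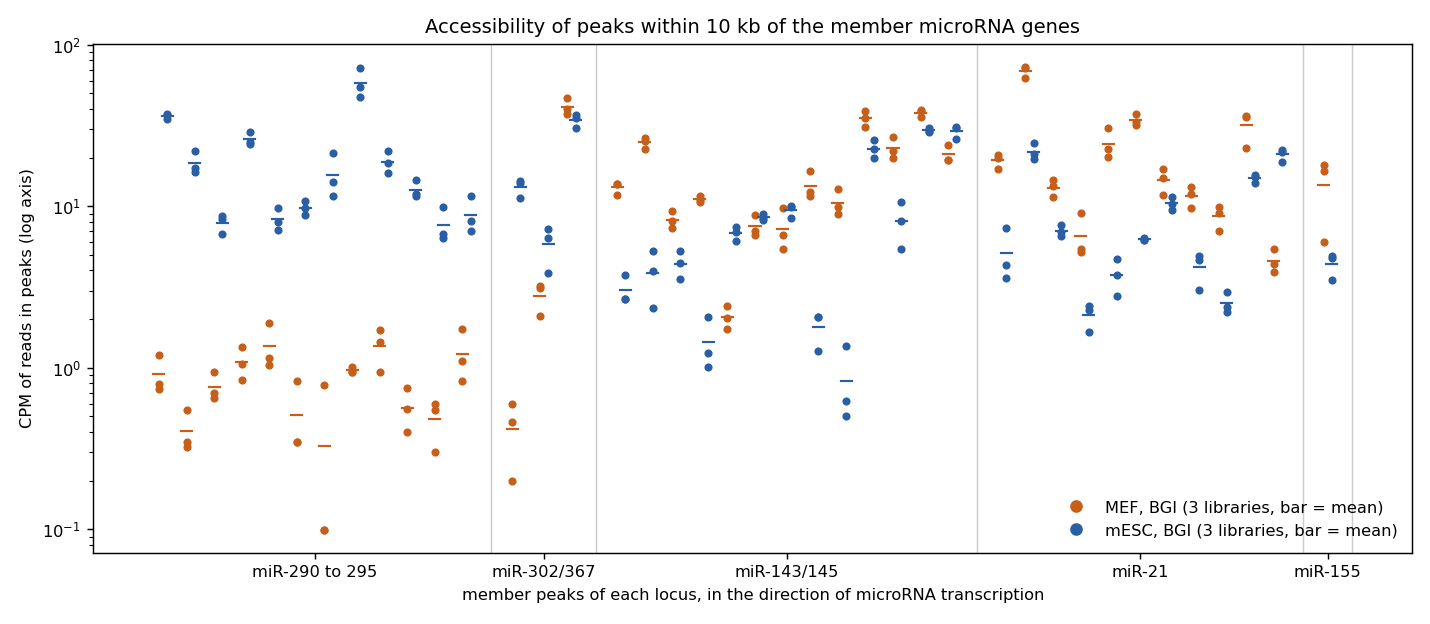
CPM of reads in peaks (log axis) of each of the 40 member peaks on BGI, ordered along each locus in the direction of microRNA transcription; points are the 3 MEF and 3 mESC libraries and bars their means. At the miR-290 cluster all mESC points lie above all MEF points in the 12 peaks, whereas most peaks of miR-143/miR-145 and miR-21 have MEFs above.

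All 12 peaks of miR-290 to miR-295 (hairpins Mir291a at chr7:3218919-3219000, Mir294 at chr7:3220641-3220724 and Mir295 at chr7:3220773-3220841, + strand) were more accessible in mESCs. The summed level was 10.3, 10.4 and 9.21 CPM in MEF libraries 1, 2 and 4, and 243, 236 and 206 CPM in mESC libraries 1, 3 and 5. The log2 fold changes ran from 2.54 to 5.83 with a median of 4.28. Among all peaks of the table these changes stood between percentiles 80.7 and 99.6. In MEFs even the highest of these peaks, chr7:3222853-3223354 at 1.36 CPM, stood at percentile 18.1 of all peaks.

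The peak with the highest level and the largest change, chr7:3221381-3221882, lay 540 bp after Mir295, in the last exon of Nlrp12, a gene of innate immunity read from the opposite strand. RefSeq also places a long non-coding RNA, D7Ertd143e, over the hairpins on the + strand (chr7:3218784-3221015), and 3 member peaks overlapped it. The highest peak gave 1.02, 0.944 and 0.946 CPM in MEFs and 71.9, 54.8 and 47.8 CPM in mESCs. The groups were far apart, and the mESC libraries differed more among themselves than the MEF libraries did. The log2 fold change was 5.83 ± 0.19 (SE, n = 3 per group), 56.9-fold. The matching Illumina peak changed by 5.93 ± 0.19.

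The smallest change of the cluster was at the peak over Mir291a itself, chr7:3218673-3219174. It gave 1.15, 1.04 and 1.89 CPM in MEFs and 7.12, 9.76 and 8.01 CPM in mESCs. The groups did not overlap, and the log2 fold change was 2.54 ± 0.27. This was 5.82-fold, less than at the neighbouring peaks on either side.

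Before the hairpins, the peaks chr7:3211982-3212483 and chr7:3213521-3214022 lie within a region that RefSeq annotates as the Mir290 enhancer cluster (chr7:3199611-3215602). The first gave 0.739, 1.19 and 0.797 CPM in MEFs and 34.5, 37.1 and 36.6 CPM in mESCs. The second, which holds the octamer printed above, gave 0.323, 0.547 and 0.348 CPM in MEFs and 21.9, 17.1 and 16.3 CPM in mESCs. Their log2 fold changes of 5.24 ± 0.17 and 5.42 ± 0.25 were among the 4 largest of the cluster. The last peak before the hairpins, chr7:3217506-3218007, ended 912 bp ahead of Mir291a and went from 1.08 ± 0.25 to 26.0 ± 2.43 CPM (SD, n = 3), a log2 fold change of 4.51 ± 0.19.

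The peak over Mir294 and Mir295, chr7:3220565-3221066, rested on few MEF reads: 17, 2 and 2 reads, or 0.785, 0.0994 and 0.0996 CPM. In mESCs it gave 21.4, 11.5 and 14.0 CPM. The log2 fold change of 5.43 ± 0.42 had the largest SE of the cluster. The remaining 6 peaks reached 7.69 to 18.9 CPM on average in mESCs and 0.482 to 1.36 CPM in MEFs. Their log2 fold changes lay between 2.80 and 4.40.

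Accessibility did not end at the 10 kb limit. Between 10 and 20 kb before Mir291a, 5 further peaks were all higher in mESCs, with log2 fold changes of 3.40 to 5.82. Of these, chr7:3201171-3201672 gave 1.66, 1.04 and 0.846 CPM in MEFs and 57.8, 62.6 and 48.5 CPM in mESCs, a level like that of the highest member peak. The promoter of AU018091, a gene before the cluster, was also higher (4.27 ± 0.29). No peak was found at the promoter of Nlrp12, whose last exon the cluster overlaps.

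**Figure D2:**
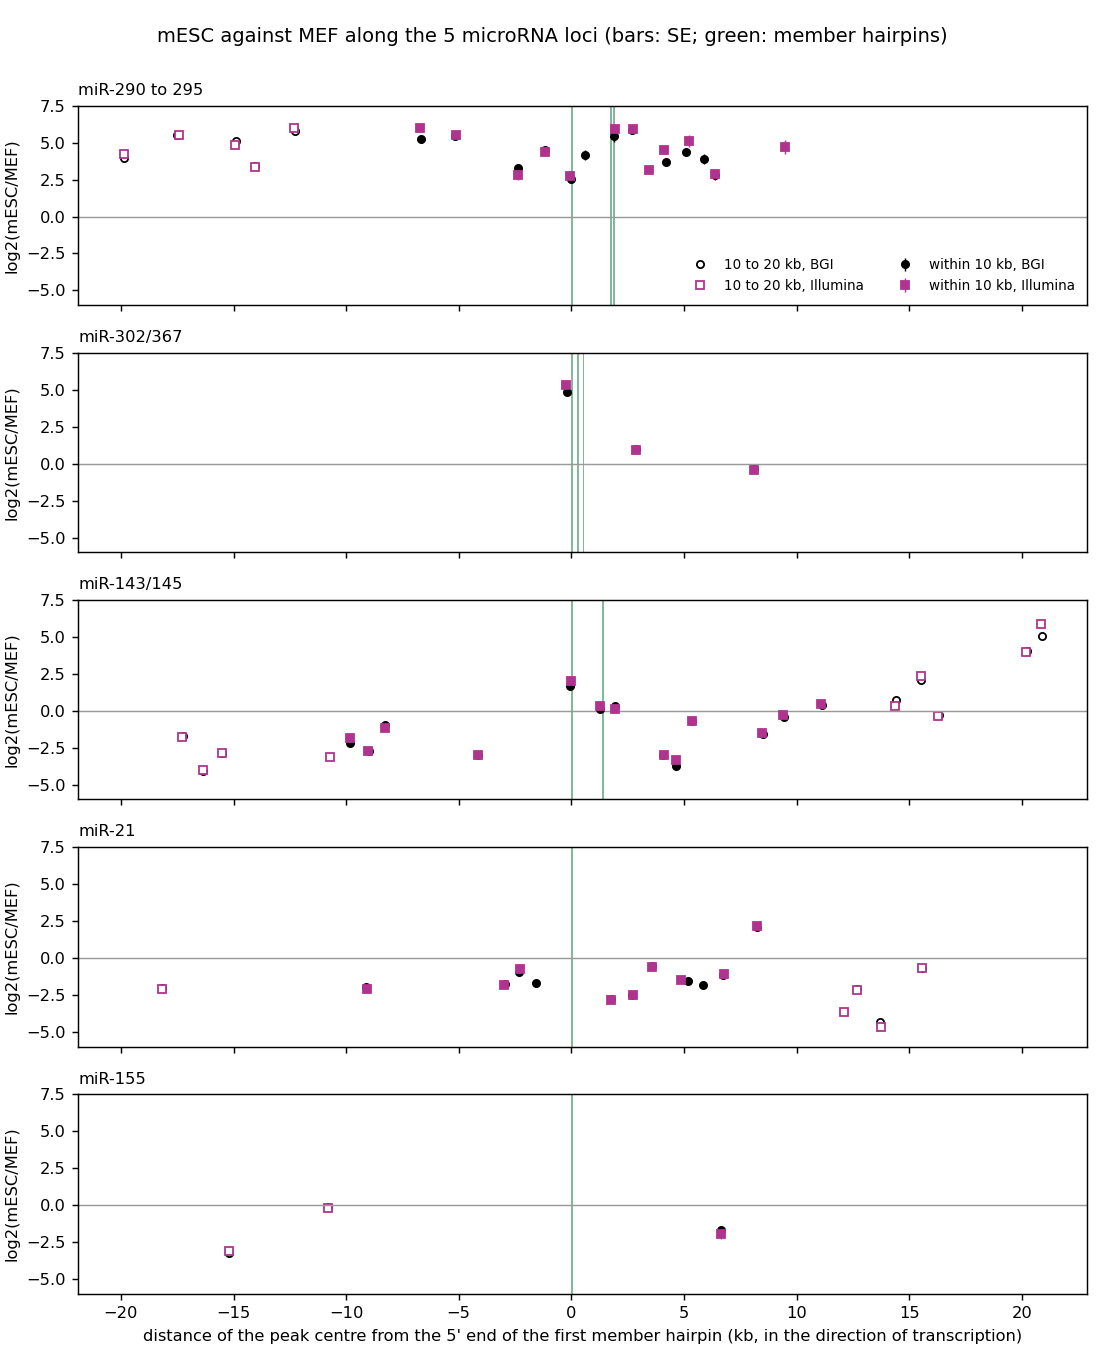
Log2 fold change of mESC over MEF (bars, SE) against the distance of the peak centre from the 5′ end of the first member hairpin, in kb along the direction of transcription, for BGI (circles) and Illumina (squares); open symbols lie 10 to 20 kb from the hairpins and green lines are the member hairpins. All miR-290 points lie above 0, the miR-302/miR-367 points fall from 4.88 at the hairpins to -0.34 at the Larp7 promoter, and the miR-143/miR-145 and miR-21 points lie mostly below 0.

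The miR-302/miR-367 cluster (Mir302b at chr3:127545228-127545301, Mir302a at chr3:127545496-127545564 and Mir367 at chr3:127545733-127545807, + strand) lies inside Larp7, which codes for a protein that binds the 7SK RNA and is read from the opposite strand. The sum of its 3 peaks was 42.8, 40.5 and 50.3 CPM in MEFs and 48.8, 54.5 and 56.3 CPM in mESCs. The promoter shared by Larp7 and Zgrf1 gave 92.8% of the MEF level and 64.3% of the mESC level, so the sum mostly follows that promoter. Within 5 kb, which leaves that promoter out, the log2 ratio of the sums was 2.56 in place of 0.26.

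The peak that reaches Mir302b, chr3:127544767-127545268, gave 0.462, 0.199 and 0.597 CPM in MEFs and 14.2, 11.3 and 14.0 CPM in mESCs. The groups were apart, on 10, 4 and 12 MEF reads. The log2 fold change was 4.88 ± 0.29, 29.5-fold. The Illumina partner changed by 5.33 ± 0.28. RefSeq places the start of a long non-coding RNA, Gm51018, at base 127545089 inside this peak.

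The next peak, chr3:127547833-127548334, was 2026 bp past Mir367 and within 1 kb of an internal start of Larp7. It rose from 2.80 ± 0.625 to 5.81 ± 1.75 CPM, a log2 fold change of 0.99 ± 0.28. Both this peak and the Mir302b peak were in the mESC list only. The Larp7 and Zgrf1 promoter, chr3:127553083-127553584, gave 40.2, 37.2 and 46.5 CPM in MEFs and 30.7, 36.8 and 35.1 CPM in mESCs. The lowest MEF library stood just above the highest mESC library, and the log2 fold change was -0.34 ± 0.10 (adjusted p = 0.00632). With library sizes fixed at the depth to which the authors had thinned the reads, the call was lost (-0.19, adjusted p = 0.14); this scaling moved the median of all peaks by 0.14 on BGI and 0.13 on Illumina.

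The miR-143/miR-145 locus on chromosome 18 (Mir143 at 61649196-61649258 and Mir145a at 61647825-61647894, - strand) lies in the RefSeq model of Carmn, a long non-coding RNA of the cardiac and smooth muscle lineage, and Bvht, another long non-coding RNA of heart development, is read towards it. Of 13 peaks, 9 were less accessible in mESCs, 2 more and 2 were not called. The summed level was 225, 208 and 211 CPM in MEFs and 131, 130 and 128 CPM in mESCs. The median log2 fold change was -0.97, with a range from -3.71 to 1.65.

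The peaks over the hairpins were not among those that fell. The peak over Mir143, at 61649045-61649546, was more accessible in mESCs, with 2.4, 2.04 and 1.74 CPM in MEFs and 7.44, 6.09 and 6.89 CPM in mESCs. The log2 fold change was 1.65 ± 0.24, and 2.02 ± 0.24 on Illumina, at a peak of the mESC list only. The peak over Mir145a, at 61647749-61648250, gave 7.06, 6.66 and 8.81 CPM in MEFs and 8.26, 8.99 and 8.45 CPM in mESCs. These ranges overlapped and no change was called (0.13 ± 0.17, adjusted p = 0.51). On Illumina it was not called either (0.30 ± 0.17, adjusted p = 0.0968), where it was in the mESC list only. Under the fixed library sizes the Illumina peak passed the threshold, with a log2 fold change of 0.43.

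The largest loss in mESCs was at 61644381-61644882, in an intron of Bvht 2943 bp past Mir145a. It gave 12.7, 9.84 and 9.01 CPM in MEFs and 0.504, 1.36 and 0.621 CPM in mESCs. The groups were well apart, with a log2 fold change of -3.71 ± 0.31, at a peak of the MEF list only. Its neighbour at 61644929-61645430 fell by 2.96, and 61653172-61653673 and 61657980-61658481 in Carmn introns fell by 2.99 and 2.75 on the log2 scale.

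The highest peak of the locus was the Bvht promoter, at 61639551-61640052. It gave 38.7, 39.2 and 35.9 CPM in MEFs and 29.2, 30.5 and 28.7 CPM in mESCs, a small but separate difference (-0.43 ± 0.09, adjusted p = 0.000434). On Illumina the difference was -0.26 ± 0.10 (adjusted p = 0.0243), and it was no longer called without MEF library 1 (-0.19, adjusted p = 0.13), without mESC library 5 (-0.22, adjusted p = 0.0928) or with fixed library sizes (-0.14, adjusted p = 0.258). The peaks at 61640505, 61643668, 61657302 and 61658852 were lower as well on BGI, with log2 fold changes of -1.58, -0.69, -0.97 and -2.19. The farthest peak past the hairpins, at 61637855, was higher (0.42 ± 0.12), and the peak at 61647054, 270 bp past Mir145a, was not called (0.31 ± 0.20, adjusted p = 0.157). It was called higher without MEF library 4 (0.56, adjusted p = 0.00800) and with fixed library sizes (0.46, adjusted p = 0.0467).

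Beyond 10 kb the locus held large changes in both directions. The Carmn promoter, at 61665352-61665853, gave 53.8, 48.5 and 49.9 CPM in MEFs and 3.85, 3.19 and 2.30 CPM in mESCs, with a log2 fold change of -4.09 ± 0.15. On the other side, 61628127-61628628 gave 1.11, 1.84 and 0.996 CPM in MEFs and 44.6, 53.9 and 42.7 CPM in mESCs (5.09 ± 0.18).

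At miR-21 (Mir21a, chr11:86584067-86584158, - strand), a hairpin in the last exon of Vmp1, the gene of an autophagy membrane protein, 10 of 11 peaks were less accessible in mESCs and 1 more. The summed level was 255, 235 and 221 CPM in MEFs and 108, 93.8 and 94.9 CPM in mESCs. The median log2 fold change was -1.71, with a range from -2.77 to 2.12. The locus was not closed in mESCs: its highest peak stood at percentile 88.0 of all peaks there, and at 99.1 in MEFs.

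That peak, chr11:86586849-86587350, covers an internal start of Vmp1 and lies 2691 bp before Mir21a, in a region that RefSeq lists as a VISTA enhancer (chr11:86586196-86587829). It gave 71.5, 62.3 and 72.6 CPM in MEFs and 24.7, 19.6 and 20.9 CPM in mESCs. All MEF libraries were far above all mESC libraries. The log2 fold change was -1.73 ± 0.10 (adjusted p = 7.16e-11), and on the Illumina table it was -1.85 ± 0.09 (adjusted p = 3.25e-12). The second peak under that enhancer, chr11:86586224-86586725, was at 13.0 ± 1.57 CPM in MEFs and 7.02 ± 0.58 CPM in mESCs (-0.96 ± 0.16).

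The peak nearest to the hairpin, chr11:86585477-86585978, was small, at 9.05, 5.47 and 5.18 CPM in MEFs and 2.27, 1.66 and 2.42 CPM in mESCs. Its log2 fold change was -1.71 ± 0.28. The largest loss was 1425 bp past the hairpin, at chr11:86582141-86582642, with 30.7, 20.03 and 22.6 CPM in MEFs and 4.73, 3.73 and 2.79 CPM in mESCs. There the log2 fold change was -2.77 ± 0.20, and chr11:86581216-86581717 beside it fell by 2.52. Of these 3 peaks, the first pair were in the MEF list only.

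A single peak went the other way, chr11:86575674-86576175, 7892 bp past Mir21a. It gave 4.38, 5.47 and 3.93 CPM in MEFs and 22.3, 21.7 and 18.8 CPM in mESCs, a log2 fold change of 2.12 ± 0.16, and was in the mESC list only. The other 5 peaks, from chr11:86577155 to chr11:86593006, were lower in mESCs, with log2 fold changes from -1.98 to -0.56. The smallest of these changes, at chr11:86580323-86580824, was from 14.6 ± 2.72 to 10.4 ± 0.959 CPM (adjusted p = 0.00445). Beyond the 10 kb limit, chr11:86570195-86570696 was almost closed in mESCs, at 2.08, 1.54 and 1.24 CPM against 33.8, 27.98 and 29.9 CPM in MEFs (-4.30 ± 0.18).

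The miR-155 locus (Mir155, chr16:84714140-84714204, + strand) held 1 peak, chr16:84720555-84721056, 6351 bp past the hairpin in an intron of Mrpl39. It gave 18.1, 16.6 and 6.02 CPM in MEFs and 4.92, 3.49 and 4.78 CPM in mESCs. MEF library 4 stood near the mESCs, and it did so on Illumina too (16.9, 16.5 and 6.55 CPM in MEFs). The log2 fold change was -1.70 ± 0.31, at a peak of the MEF list only, and with 1 library left out it ran from -1.38 without MEF library 1 to -2.06 without MEF library 4. No peak lay within 5 kb of Mir155.

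The promoter of Mir155hg, the host transcript of miR-155, lay 10549 bp before the hairpin and so just outside the limit. No change was called there, with 8.68, 7.95 and 9.81 CPM in MEFs and 8.26, 8.10 and 9.01 CPM in mESCs, and its ranges overlapped (-0.13 ± 0.16, adjusted p = 0.48). A peak before it, chr16:84698698-84699199, was lower in mESCs, at 2.396, 1.36 and 1.37 CPM against 15.4, 14.0 and 17.0 CPM in MEFs (-3.25 ± 0.22).

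The authors also called peaks in each sample alone, with a summit and its -log10 p against the genome background. The joint peak set was built from these calls, and all 12 miR-290 peaks and the Mir302b peak were in the mESC list only. Summits there in mESCs, and few in MEFs, were therefore largely set by that choice and are no further evidence. In mESCs a summit fell in all 12 miR-290 peaks in 3 of 3 libraries on either platform, with a -log10 p of 11.99 or more. In MEFs none of these 12 peaks had a summit in all 3 libraries, and 10 of 12 on BGI had none in any. The locus was not without summits in MEFs, since each MEF library had 1 with a -log10 p over 10 within the 10 kb window (17.8 to 23.8 on BGI and 13.3 to 22.3 on Illumina). The Mir302b peak likewise had a summit in all mESC libraries (-log10 p of 44.0 to 49.5 on BGI) and in no MEF library on either platform. By contrast, the highest miR-21 peak had summits in all libraries, with BGI values of 407 to 494 for MEFs and 80.7 to 93.0 for mESCs. At miR-143/miR-145 on BGI, a summit was present in all 3 libraries at 12 of 13 peaks in MEFs and at 10 of 13 in mESCs. These counts are given without a share over all peaks and are descriptions.

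The numbers of peaks in the authors' lists per cell type describe the choice behind the joint set and are no further evidence. Their MEF list on BGI held none of the miR-290 sites and their mESC list held 12. The corresponding numbers were 1 and 3 at miR-302/miR-367, 11 and 7 at miR-143/miR-145, 10 and 6 at miR-21 and 1 and 0 at miR-155. On Illumina the numbers were equal except at miR-21, with 8 and 5.

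Motif letters were counted in the central 300 bases of each peak on both strands; the AP-1, STAT and E box letters read the same on both. AP-1 letters (TGANTCA) were in 1 of 15 peaks of the stem cell loci and in 10 of 25 of the fibroblast loci, against 21.4% of all BGI peaks, 14.5% of those called higher in mESCs and 31.8% of those called lower. The POU octamer (ATTTGCAT) was in 1 of 15 and 1 of 25 peaks, and in 2.29% of all. The SOX letters (ACAATG) were in 1 and 5 peaks, against 13.0% of all. KLF letters (GGGNGTGG) were also in 1 and 5, against 22.4% of all peaks called higher and 13.7% of those called lower. The TEAD letters (GGAATG) were in 4 and 4 member peaks and in 23.5% of all. The ZEB/SNAI letters (CAGGTG) were in 3 and 5, and in 20.1% of all. STAT letters (TTCNNNGAA) were in 3 and 3 against 8.59% of all. The TATA box letters (TATAAA) were in 2 and 0 against 9.05% of all. The E box (CACGTG) was in 2 and 1 against 5.80% of all. The ESRRB letters (TCAAGGTCA) were in no BGI member peak and in 0.88% of all. On Illumina they were in 1 of 15 peaks of the stem cell loci, at the miR-290 peak chr7:3222122-3222623, which has no BGI partner. No test was made on these small counts.

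Among 2207 microRNA genes of the annotation, 44.6% had no BGI peak within 10 kb and the median gene had 1. Mir291a, Mir294, Mir295 and Mir143 had 12 each and shared rank 4, Mir145a and Mir21a had 11, the miR-302/miR-367 hairpins 3 and Mir155 1. Ranked by the change of their highest peak among the 1222 genes with a peak, the 3 miR-290 members stood 6 from the top. Over the 1070 distinct highest peaks of all these genes, 314 were higher in mESCs, 503 lower and 253 not called, with a median log2 fold change of -0.21. The shares over all BGI peaks were 40.9% higher and 43.2% lower, with a median of -0.08. The highest peaks come from the joint set, and their changes are descriptions.

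The other clusters of mesenchymal or differentiated cells were described by their highest peak. Of 21 distinct highest peaks near 24 of 32 listed hairpins, 14 were less accessible in mESCs, 3 more and 4 were not called (median log2 fold change -1.0, against -0.08 for all peaks). Of all BGI peaks 43.2% were called lower and 40.9% higher. The largest losses were at Mir199a-2 and Mir214 (-4.43 ± 0.14), Mir34a, a target of p53 (-3.34 ± 0.25), and Mir125b-1 (-2.73 ± 0.21). Against these, Mir23b and Mir27b rose (2.06 ± 0.15), as did Mir10a in the Hox cluster (0.37 ± 0.13) and Mir23a (0.26 ± 0.08). On chromosome 8, which also holds Mir23a, the highest BGI peak near Mir24-2 was lower (-1.32 ± 0.11). Its highest peak on Illumina was that of Mir23a (0.20 ± 0.09). Of 10 distinct peaks near 22 of 24 hairpins from clusters of stem, germ or epithelial cells, 5 were higher, 1 lower and 4 not called (median 1.33), so the number higher was close to the 40.9% of all BGI peaks. These peaks, too, come from the joint set, and their changes are descriptions. The rises were at Mir200a, Mir200b and Mir429, which act against Zeb factors (4.53 ± 0.25), at Mir106a and Mir363 (3.19 ± 0.21), at Mir296 and Mir298 (2.82 ± 0.20), at Mir182, Mir96 and Mir183 (2.65 ± 0.12) and at Mir205 (2.49 ± 0.19). The Mir17 cluster, which is widely expressed in dividing cells, was lower (-0.66 ± 0.11).

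Among the promoters of 26 genes of the microRNA pathway, 5 were more accessible in mESCs, 12 less and 9 were not called, with a median of -0.18. Of all BGI peaks 40.9% were called higher and 43.2% lower, and the share of these promoters called lower was close to the latter. The rises were led by Lin28a (3.35 ± 0.18) and Lin28b (1.68 ± 0.16), which block let-7 maturation, and by Trim71 (1.70 ± 0.14), a let-7 target. The 3 largest losses were at Ago2, the Argonaute with slicer activity (-1.07 ± 0.11), Prkra, a Dicer partner (-0.79 ± 0.10), and Ran, which drives export of the hairpins (-0.65 ± 0.10). Drosha (-0.11, adjusted p = 0.278), Dgcr8 (-0.00071, adjusted p = 0.995), Xpo5 (-0.02, adjusted p = 0.836) and Dicer1 (0.08, adjusted p = 0.404) were not called. Of 12 host or neighbour promoters with a peak, 5 were higher, 4 lower and 3 not called. Apart from those already given, Jam2 beside miR-155 rose (1.201 ± 0.11), and so did Gabpa, further along (0.51 ± 0.10).

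**Figure D3:**
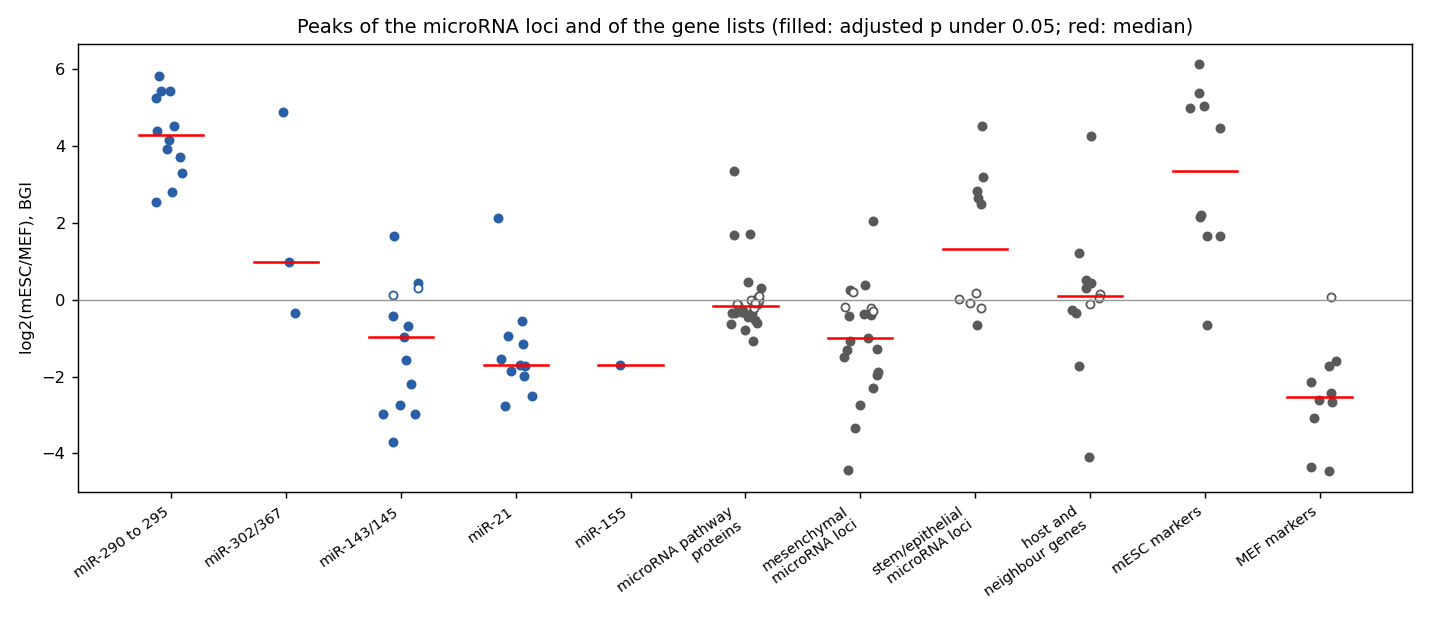
Log2 fold change of mESC over MEF on BGI for the peaks of each microRNA locus (blue) and of each list (grey). Lists have 1 peak per gene, and a peak shared by several microRNA genes is drawn once. Filled points had an adjusted p under 0.05 and red bars are medians. The miR-290 median of 4.28 is the highest and the MEF markers have the lowest, while pathway promoters centre on -0.18.

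On Illumina, 17 of 38 member peaks were higher in mESCs, 19 lower and 2 not called, against 42.1% and 42.4% of all Illumina peaks (84.5% in either direction). Ranges did not overlap at 18 peaks with mESCs above and 17 with mESCs below, against 43.7% and 41.8% of all peaks. By locus the calls were 12 higher at miR-290 to miR-295, 2 higher and 1 lower at miR-302/miR-367, 2 higher and 9 lower at miR-143/miR-145, 1 higher and 8 lower at miR-21, and 1 lower at miR-155. Between the peak sets 35 of the 40 BGI peaks had an Illumina partner with at least 251 bp in common, and all 35 had the same call on both. The log2 fold changes of partners differed by a median of 0.12 and at most by 0.78.

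The 3 Illumina peaks without a partner had much the same level on BGI. Of these, the peak chr7:3222122-3222623, between BGI peaks of the miR-290 cluster, rose from 3.95 ± 1.10 CPM for MEFs to 36.02 ± 3.40 CPM for mESCs, a log2 fold change of 3.14. On BGI it had no peak in the count table, but all 3 mESC samples had a summit there, with a -log10 p of 113 to 172, as did 2 of 3 MEF samples, with up to 22.8. The BGI reads that the authors counted over this Illumina peak gave a mean of 36.7 ± 3.34 CPM for mESCs, and 4.45 ± 1.45 CPM for MEFs.

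The difference between the cell types was then compared between the platforms with an interaction term over all 12 samples. No member peak was called, none had an unadjusted p under 0.05, and the adjusted p was 1.0 for each. DESeq2 called none of them either. Across all peaks 0.0% were called, and 2.61% had an unadjusted p under 0.05. With the library as a replicate block, 0.379% of all peaks were called with a positive and 0.00766% with a negative term, 0.386% in all, and no member was among them. Interactions at the members reached at most 0.75 in size on the log2 scale (chr7:3223766-3224267, SE 0.59). In simulated data without pairing, the test without the block found 27.5% of interactions of 1 on the log2 scale, and the blocked test was not simulated.

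Within a cell type, BGI and Illumina readings of the same libraries were close at these loci. Among 23 member peaks of the MEF set and 30 of the mESC set, edgeR called 0 in either direction without pairing. An unadjusted p under 0.05 was found at 1 MEF peak and at 0 mESC peaks, against 15.2% of all MEF and 13.1% of all mESC peaks. DESeq2 called 1 of the 22 MEF peaks and 0 of the 20 mESC peaks to which it gave an adjusted p, the 1 being higher on BGI. Of all peaks with one, DESeq2 called 1.12% higher and 11.7% lower in MEFs (12.8% in all), and 0.0861% and 5.66% in mESCs (5.75% in all). By edgeR, of all MEF peaks 0.107% were called higher and 3.96% lower on BGI (4.06% in all), and of all mESC peaks 0.0418% and 3.19% (3.23% in all). The log2 ratios of BGI over Illumina ran from -0.20 to 0.31 in MEFs and from -0.30 to 0.33 in mESCs.

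Each library was read on both sequencers, and with the replicate block more peaks were called. In MEFs 4 member peaks were then higher and 1 lower on BGI, against 13.9% and 15.3% of all peaks (29.2% in all), and in mESCs 1 was higher and 2 lower, against 5.78% and 15.6% (21.3% in all). The largest was the Bvht promoter in MEFs (log2 ratio 0.31 ± 0.06, adjusted p = 1.39e-05). The Larp7 and Zgrf1 promoter, with 62.1% GC the richest in GC of the MEF member peaks, was lower on BGI in MEFs (-0.20 ± 0.05, adjusted p = 0.00290) and in mESCs (-0.15 ± 0.06, adjusted p = 0.0398). With an offset for GC content beside the block, its log2 ratios were -0.08 in MEFs and -0.04 in mESCs (adjusted p = 0.271 and 0.728). The miR-21 peaks chr11:86577144-86577656 and chr11:86581155-86581717 in MEFs went from 0.24 to 0.13 and from 0.19 to 0.05, and the miR-290 peak chr7:3211955-3212483 in mESCs from 0.15 to 0.06, and none of these was then called. The Mir143 peak in mESCs kept its size (-0.30 and -0.32) while its adjusted p went from 0.0455 to 0.0571. The calls left were 2 of 23 in MEFs, both higher on BGI, and 0 of 30 in mESCs. Of all peaks 6.54% were then called higher and 6.18% lower in MEFs (12.7% in all), and 4.47% and 4.19% in mESCs (8.66% in all). These ratios are small beside the differences between the cell types at most of the same peaks.

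**Figure D4:**
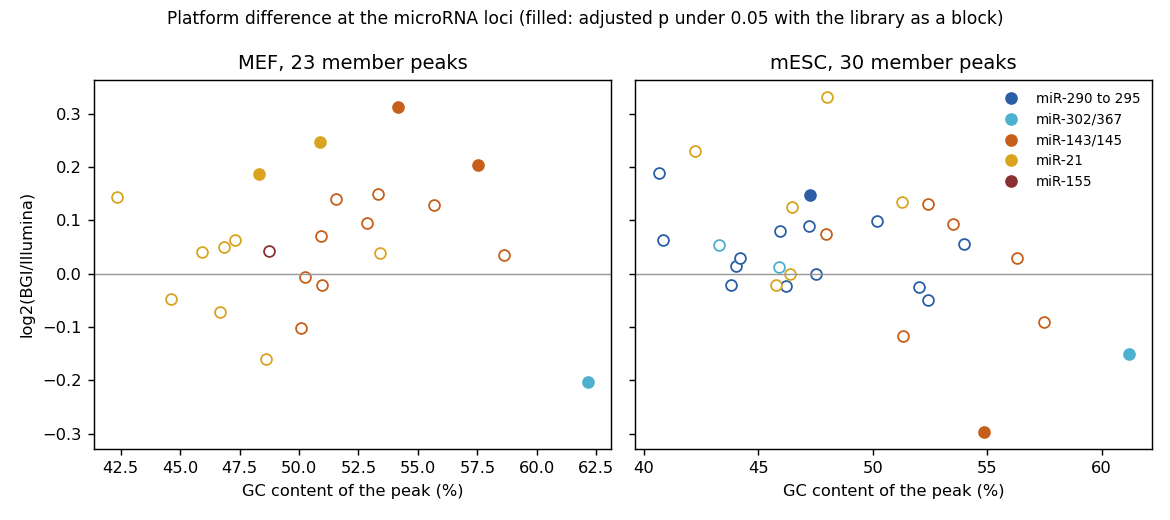
Log2 ratio of BGI over Illumina against the GC content of the peak (percent) for the 23 MEF and 30 mESC member peaks, coloured by locus; filled points had an adjusted p under 0.05 with the library as a block. Ratios lie between -0.30 and 0.33, and the peak richest in GC, the Larp7 and Zgrf1 promoter, is below 0 in both panels.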

How the data were processed

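The member rule, the gene lists and the motifs were chosen with earlier results of these data known. The authors trimmed reads to 100 bp (Illumina reads were 150 bp long), aligned them to the mouse genome GRCm38/mm10, discarded mitochondrial and duplicate reads, thinned each sample to 60 M (MEF) or 45 M (mESC) reads (M, 1000000), called peaks with MACS2 and deposited the raw count of reads in each peak of a joint set. Their peak lists per sample, as deposited, give each summit's fold enrichment and -log10 p. Count columns with no platform in their name were taken as Illumina, and every sample column was mapped.

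CPM is counts per M reads in peaks, without further scaling. Counts were tested with the quasi-likelihood test of edgeR 4.0.16 in R 4.3.3 (TMM scaling, Benjamini-Hochberg adjustment over all peaks, adjusted p under 0.05), fitted per platform for mESC against MEF, per cell type for BGI against Illumina, and over all 12 samples for the interaction. The filter on low counts removed no peak. The SE is the size of the log2 fold change divided by the square root of the F statistic. DESeq2 1.42.0 was an alternative, as were other scaling, windows of 5 and 20 kb, leaving out each library, and a replicate block with and without a GC offset. Tables, sequences and plots were made with Python 3.11.15, pandas 2.3.3, numpy 2.4.6, pysam 0.24.0 and matplotlib 3.10.9. In simulated data, 81.5% (BGI) and 86.5% (Illumina) of peaks changed by 1 on the log2 scale between cell types were called, and 94.5% (MEF) and 90.5% (mESC) between platforms. The simulation changed 200 peaks per comparison, left the rest equal and gave all peaks the same spread between libraries. The real peaks differ in this, so these shares need not hold for them.

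The platforms pair by library: deviations from the group means of the same library correlated with r of 0.618 to 0.837 (MEF) or 0.514 to 0.722 (mESC), those of different libraries with r of -0.676 to 0.298 (MEF) or -0.509 to -0.115 (mESC). A promoter peak lies within 1000 bp of a GENCODE start. The text gives values for the highest, the nearest and the most changed peaks of each locus in each direction, peaks of annotated elements and, for each list, the largest changes; other member peaks named were chosen after their values were seen.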

Additional observations from a re-analysis of the deposited data

How the results depend on the processing

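No called member peak reversed under any alternative run. For mESC against MEF, counts of member peaks moved by more than 1.5 times only with the window. Within 5 kb, 11 peaks were lower in mESCs on BGI and 10 on Illumina. Within 20 kb, 26 were higher on BGI and 30 lower on Illumina. Leaving out 1 library gave 17 to 18 higher and 21 lower peaks on BGI, and 17 higher and 18 to 19 lower on Illumina. The summed levels (log2 of mESC over MEF) became 4.69 for the miR-290 cluster within 20 kb, 2.56 for miR-302/miR-367 within 5 kb, -0.43 for miR-143/miR-145 within 20 kb and -0.65 per read of the thinned depth, and -1.64 and -1.46 for miR-21 within 5 and 20 kb. No value exists for miR-155 within 5 kb, where it has no peak. Of the peaks given by name, the Larp7 promoter and the peak 270 bp past Mir145a on BGI, and the Bvht promoter and the Mir145a peak on Illumina, changed sides of the threshold, as given with their values above.

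Between platforms, the pairing by library mattered most. With the replicate block 4 MEF member peaks were higher and 1 lower on BGI, and 1 mESC peak was higher and 2 lower; with a GC offset added, 2 MEF peaks were higher. DESeq2 called 1 MEF peak higher. Leaving out 1 library gave 0 to 1 lower peaks in MEFs, the 1 without library 4. With the block, the interaction was positive at 346 and negative at 7 of all peaks, none a member. For mESC against MEF there is no blocked value, because no label ties a MEF library to a mESC library. The number 1 that both cell types share is not a known pairing. Depth limits the MEF values of the miR-290 cluster, where a peak held 2 to 38 reads per library on BGI and 0 to 96 on Illumina.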
